A study of Mus musculus with 8 samples.

Results

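De novo lipogenesis and fatty acid desaturation genes were measured by RNA-seq in AML-12, a mouse hepatocyte line derived from an animal transgenic for transforming growth factor alpha. The genes were chosen by symbol for their known roles, 10 of the 21983 symbols counted: Srebf1, Mlxipl, Acly, Acaca, Fasn, Elovl6, Scd1, Scd2, Fads1 and Fads2. The first group was 4 libraries of cells that overexpressed Gm47544, annotated in GENCODE as an antisense gene (GM47544 in the sample names, which name no vector). The other was 4 libraries of control cells with pLKO.1, a lentiviral vector, labelled as wild type. Cells of both groups were grown in medium with serum. All 10 genes passed the filter on low counts and were compared among 11520 tested genes. Gene positions are those of GENCODE M21 on GRCm38.

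De novo lipogenesis builds fatty acids from acetyl-CoA and is a main route of lipid supply in the liver. Acly cleaves citrate to cytosolic acetyl-CoA, Acaca carboxylates it to malonyl-CoA, and Fasn assembles palmitate, which Elovl6 lengthens to stearate. Scd1 and Scd2 place the first double bond in saturated acyl chains, whereas Fads1 and Fads2 desaturate polyunsaturated chains. The transcription factors SREBP-1, encoded by Srebf1 and known to respond to insulin and sterols, and ChREBP, encoded by Mlxipl and known to respond to glucose, drive many of these genes in liver.

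Promoters of Mlxipl, Acly and Fads2, whose level changed, and of Fasn are shown because known sites of lipogenic factors lie in such windows. RefSeq windows on GRCm38.p6, from 250 bases before to 50 bases after a start site, were found for 7 of the 10 symbols, and not for Scd1, Scd2 and Fads1. Capitals mark matches on either strand to CCAAT, the box bound by NF-Y, to CACGTG, an E-box, and to TCACNCCAC, a form of the sterol regulatory element. The last motif searched, the direct repeat DR4 bound by liver X receptors, had no match in the members' windows. These 4 motifs were held by 37.4%, 7.15%, 1.24% and 0.0152% of 32851 promoter windows of this length.
Mlxipl at the annotated gene start, chr5:135089640-135089939, plus strand: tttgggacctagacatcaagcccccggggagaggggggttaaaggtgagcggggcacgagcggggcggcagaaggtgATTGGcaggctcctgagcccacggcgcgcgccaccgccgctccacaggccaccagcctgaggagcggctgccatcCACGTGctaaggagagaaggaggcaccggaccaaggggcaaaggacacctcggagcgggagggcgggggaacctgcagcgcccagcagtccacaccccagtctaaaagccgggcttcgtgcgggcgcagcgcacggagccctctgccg
Mlxipl at a start site 17001 bases downstream, chr5:135106641-135106940, plus strand: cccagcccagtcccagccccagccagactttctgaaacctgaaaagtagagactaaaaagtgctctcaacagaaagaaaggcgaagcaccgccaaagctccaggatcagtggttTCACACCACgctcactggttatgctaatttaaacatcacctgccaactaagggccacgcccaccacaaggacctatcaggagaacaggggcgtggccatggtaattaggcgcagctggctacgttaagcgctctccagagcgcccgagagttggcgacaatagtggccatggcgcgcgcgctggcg
Acly, chr11:100527951-100528250, minus strand: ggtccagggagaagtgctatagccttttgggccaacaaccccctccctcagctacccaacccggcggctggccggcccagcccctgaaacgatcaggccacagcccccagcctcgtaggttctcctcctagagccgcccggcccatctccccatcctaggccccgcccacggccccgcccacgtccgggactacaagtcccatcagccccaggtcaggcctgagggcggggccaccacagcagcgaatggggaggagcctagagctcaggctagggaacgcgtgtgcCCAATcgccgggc
Fasn, chr11:120824498-120824797, minus strand: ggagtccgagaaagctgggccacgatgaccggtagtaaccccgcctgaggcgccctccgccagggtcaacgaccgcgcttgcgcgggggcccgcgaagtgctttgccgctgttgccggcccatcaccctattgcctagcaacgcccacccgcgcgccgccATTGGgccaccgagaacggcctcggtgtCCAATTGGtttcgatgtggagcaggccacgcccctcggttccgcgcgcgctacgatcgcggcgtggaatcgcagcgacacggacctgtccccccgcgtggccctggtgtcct
Fads2, chr19:10101454-10101753, minus strand: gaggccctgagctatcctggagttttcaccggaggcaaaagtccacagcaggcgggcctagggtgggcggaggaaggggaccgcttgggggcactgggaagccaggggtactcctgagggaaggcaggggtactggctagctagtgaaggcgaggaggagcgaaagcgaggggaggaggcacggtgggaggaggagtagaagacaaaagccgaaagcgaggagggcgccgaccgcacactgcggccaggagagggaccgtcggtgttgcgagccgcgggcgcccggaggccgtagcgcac
The upstream Mlxipl window held CACGTG from base -98 to -93 and an inverted CCAAT box from -173 to -169, counted from the start site, and the downstream window held TCACACCAC from -136 to -128. The Fasn window held 3 CCAAT boxes, of which the pair between -62 and -55 overlap on opposite strands. Acly had a CCAAT box within the transcribed part, from base 38 to 42. No match to the 4 motifs lay in the Fads2 window, nor in those of Acaca and Elovl6. The start site of the Fads2 window lies 243 bases downstream of the annotated gene start. That of the only Acaca window lies 65766 bases downstream, so the promoter at the annotated Acaca start was not read. Of the 3 Srebf1 windows, those at the annotated start and 12110 bases downstream each held a CCAAT box. A match is a description of the letters in the window.

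Library totals lay between 11016907 and 17338310 counts in GM47544 libraries and between 12256376 and 18965662 in pLKO.1 libraries. Separate cultures are not named in the labels, so the p-values reflect only how these libraries vary, and that spread may be technical. The pLKO.1 library 3 stood apart on the first principal component, at 22.2, against 49.98 to 60.7 in the other controls and -50.4 to -43.5 in GM47544 libraries. The hepatocyte regulator Hnf4a was at 310.3 CPM, the counts scaled to equal library size, on average in GM47544 libraries and at 348 CPM in pLKO.1 libraries, while Cyp2e1 and Pck1, enzymes of mature hepatocytes, each had 0 GM47544 counts and 1 pLKO.1 count. Summed markers of bile duct cells were at 4619 to 5238 CPM in GM47544 libraries and 2906 to 4296 CPM in pLKO.1 libraries, with 6 of 10 tested, 1 higher and 3 lower. The gene called higher was Spp1, with means of 2731 CPM in GM47544 libraries and 943 CPM in pLKO.1 libraries. Krt19, Sox9 and Muc1 were called lower, so the higher sum rests on Spp1. Summed hepatocyte markers were at 1397 to 1468 CPM in GM47544 libraries and 2121 to 2760 CPM in pLKO.1 libraries, with 13 of 20 tested, 3 higher and 4 lower. Ttr made up most of the control sum, with means of 279 CPM in GM47544 libraries and 1321 CPM in pLKO.1 libraries. Alb went the other way, at 267 CPM in GM47544 libraries and 22.3 CPM in pLKO.1 libraries, so the sum does not describe the list as a whole. Of 10 adipocyte markers 2 were tested and 0 called, and their sums were 4.80 to 6.33 CPM in GM47544 libraries and 5.12 to 7.60 CPM in pLKO.1 libraries, with Lep at 0. Summed macrophage markers were at 601 to 749 CPM in GM47544 libraries and 830.2 to 1294 CPM in pLKO.1 libraries, with 4 of 10 tested, 0 higher and 2 lower, and Adgre1, Clec4f, C1qa and C1qb at 0. Nearly all of the macrophage sum was Cd14, with means of 680 CPM in GM47544 libraries and 1077 CPM in pLKO.1 libraries. Summed stellate cell and fibroblast markers were at 10.4 to 17.6 CPM in GM47544 libraries and 3.94 to 5.85 CPM in pLKO.1 libraries. Both of the 2 tested of 10 were higher, and Col1a2, Col3a1 and Lrat were at 0. Most of that sum was Des, with means of 11.3 CPM in GM47544 libraries and 3.95 CPM in pLKO.1 libraries. Summed endothelial markers were at 12.6 to 15.04 CPM in GM47544 libraries and 7.08 to 10.0 CPM in pLKO.1 libraries. Of these 10 markers 4 were tested, 3 higher and 1 lower, and Erg was at 0. Flt1 was the largest part, with means of 8.83 CPM in GM47544 libraries and 4.53 CPM in pLKO.1 libraries. The part of these marker levels in the results on the lipogenic genes was not tested. In bulk RNA, fewer cells expressing a gene and less of its RNA per cell cannot be told apart.

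Transcripts of 3 of the 4 desaturases fell, and those of Acly and of the transcription factor gene Mlxipl rose. The central enzymes Acaca and Fasn passed in neither direction. Genes were called at a Benjamini-Hochberg adjusted p under 0.05 from the quasi-likelihood test of edgeR. By that rule Mlxipl and Acly were higher and Scd1, Fads1 and Fads2 were lower in GM47544 libraries. Thus 2 of 10 members were higher and 3 were lower, where 32.3% and 32.1% of all tested genes were higher and lower, 64.4% in all, so 5 of 10 is no more than the background. The median log2 fold change of the members was -0.20 (all tested genes 0.000406), and the median size of their change was 0.31 (all tested genes 0.53). Scaling by library totals alone moved the median of all genes by 0.128 and that of the members to -0.068, and removal of the GC trend moved the members' median to 0.0086. Without pLKO.1 library 3, 4 members were higher and 5 were lower, with 77.4% of all tested genes called, 38.7% in each direction. With the trend of counts on gene length removed from each library, 2 were higher and 7 lower (60.6% of all tested genes called, 29.4% higher and 31.1% lower). With the trend on GC content removed, 2 were higher and 3 lower (71.4% called, 35.8% higher and 35.6% lower), and with both removed 2 were higher and 7 lower (68.1% called, 32.8% higher and 35.3% lower). The length trend removed together with a block on replicate numbers gave 1 higher and 6 lower (58.0% called, 29.0% in each direction), and limma-voom with quality weights gave 4 higher and 5 lower (77.4% called, 39.4% higher and 38.0% lower). In the 7 libraries other than pLKO.1 library 3, removal of the length trend gave 3 higher and 7 lower (73.2% called, 36.0% higher and 37.1% lower), and removal of the GC trend gave 3 higher and 4 lower (76.8% called, 39.0% higher and 37.9% lower). The CPM values of the groups did not overlap for 5 of the 10 members, against 56.0% of all tested genes (28.5% higher and 27.5% lower). Without pLKO.1 library 3 they did not overlap for 9 of the 10 members, 4 higher and 5 lower, against 74.8% of all tested genes (38.7% higher and 36.1% lower).

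**Figure D1:**
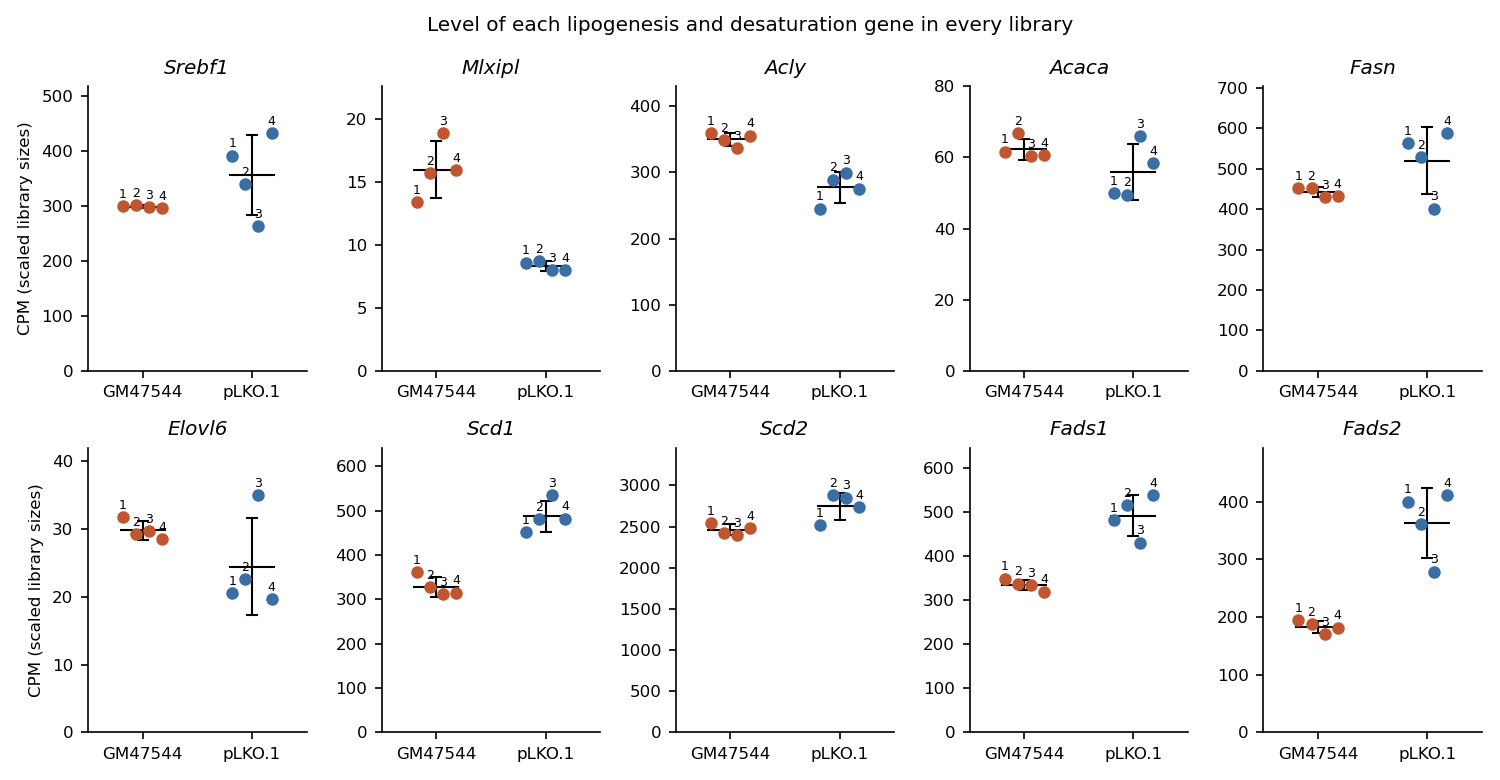
CPM of each of the 10 genes in every library, with GM47544 libraries in orange and pLKO.1 libraries in blue, numbered by library; bars are the mean and SD of 4 libraries and all axes start at 0. The groups are separate for Mlxipl, Acly, Scd1, Fads1 and Fads2, and pLKO.1 library 3 is the lowest point for Srebf1 and Fasn and the highest for Elovl6.

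Of the 2 transcription factor genes, Mlxipl rose and Srebf1 did not pass. Mlxipl (chromosome 5, 135089890 to 135138382, plus strand) had 13.4, 15.7, 18.8 and 15.9 CPM in GM47544 libraries 1 to 4, against 8.58, 8.69, 7.998 and 7.99 CPM in pLKO.1 libraries 1 to 4. All GM47544 values lay above all pLKO.1 values, at 1.92-fold (log2 fold change 0.94, SE 0.14, 95% interval 0.64 to 1.24, edgeR, adjusted p = 9.88e-05). Its counts were few, 871 over the GM47544 libraries and 491 over the pLKO.1 libraries, and the call held in all 21 alternative settings. Of its exon bases 4.24% overlap Gm43500, an antisense gene. Srebf1 (chromosome 11, 60199089 to 60222581, minus strand) had 300.01, 302, 299 and 296 CPM in GM47544 libraries, against 392, 340.3, 263 and 433 CPM in pLKO.1 libraries. The GM47544 values were nearly alike (coefficient of variation 0.852%), whereas the pLKO.1 values spread by 20.5% around their mean and lay on both sides of them, library 3 below and the other 3 above. The log2 fold change of Srebf1 was -0.25 (SE 0.14, 95% interval -0.55 to 0.046, edgeR, adjusted p = 0.125). Without pLKO.1 library 3 it was -0.40 (edgeR, adjusted p = 0.000231), and the groups did not overlap. With the trend of counts on GC content removed from each library it was 0.061 (edgeR, adjusted p = 0.358). Gene counts hold both SREBP-1a and SREBP-1c transcripts, which start at different first exons of Srebf1, and 109 bases of its exons (1.94%) overlap Rai1 on the opposite strand.

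Among the enzymes that make palmitate, Acly rose, while Acaca and Fasn depended on the settings. Acly (chromosome 11, 100476353 to 100528000, minus strand) had 359, 349, 336 and 355 CPM in GM47544 libraries, against 245, 289, 299.7 and 275 CPM in pLKO.1 libraries. Every GM47544 value was above every pLKO.1 value, and Acly was 1.26-fold higher (log2 fold change 0.34, SE 0.10, 95% interval 0.12 to 0.56, edgeR, adjusted p = 0.0113). The Acly call was lost with the replicate numbers as a block and the trend on gene length removed (log2 fold change 0.24; edgeR, adjusted p = 0.103), and with that trend and the GC trend removed it was 0.40.

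Fasn (chromosome 11, 120805846 to 120824547, minus strand) had 452, 452, 429.8 and 433 CPM in GM47544 libraries, against 564, 529, 401 and 587 CPM in pLKO.1 libraries. Control library 3 lay below all GM47544 libraries and the other controls above them, and the log2 fold change of -0.24 did not pass (SE 0.12, 95% interval -0.50 to 0.031, edgeR, adjusted p = 0.11). It was -0.37 without pLKO.1 library 3 (edgeR, adjusted p = 0.00017), -0.78 with the length trend removed (edgeR, adjusted p = 0.00127) and 0.074 with the GC trend removed (edgeR, adjusted p = 0.306). Fasn is a long and GC-rich transcript, with 10947 exon bases and 57.9% GC. Srebf1 (58.4% GC), Fasn and Mlxipl (56.6% GC) were the 3 members highest in GC content, and Elovl6 was the lowest at 44.0%.

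Acaca (chromosome 11, 84129672 to 84401651, plus strand) had 61.6, 66.7, 60.2 and 60.7 CPM in GM47544 libraries, against 49.9, 49.5, 65.9 and 58.4 CPM in pLKO.1 libraries, and library 3 overlapped the GM47544 values. Its log2 fold change was 0.16 (SE 0.12, 95% interval -0.10 to 0.41, edgeR, adjusted p = 0.267). Without pLKO.1 library 3 it was 0.22 (edgeR, adjusted p = 0.0277), and with the length trend removed its direction turned, to -0.60 (edgeR, adjusted p = 0.000213). The exons of all 9 annotated Acaca transcripts together cover 17074 bases, the most of the members. Its longest transcript alone holds 9464 words of 50 bases, fewer than the 10001 of Fasn. The length trend used the joined exons, so the turn of Acaca may depend on that choice of length. Its counts are uncertain for a further reason: 52.6% of the 50-base words of its longest transcript also occur in Gm5182, a processed pseudogene, and the treatment of such reads in the authors' counting is not stated in the labels.

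Elovl6 (chromosome 3, 129532355 to 129638495, plus strand), the only elongase among the members, had 31.8, 29.3, 29.7 and 28.5 CPM in GM47544 libraries, against 20.5, 22.6, 35.1 and 19.7 CPM in pLKO.1 libraries. The GM47544 values lay above 3 of the controls and below control library 3, which was the highest of all 8 libraries. Its log2 fold change was 0.28 (SE 0.17, 95% interval -0.089 to 0.66, edgeR, adjusted p = 0.165), and 0.48 without pLKO.1 library 3 (edgeR, adjusted p = 0.000291). It was -0.044 with the GC trend removed (edgeR, adjusted p = 0.694) and -0.25 with the length and GC trends removed (edgeR, adjusted p = 0.0147), so its direction turned with the setting.

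**Figure D2:**
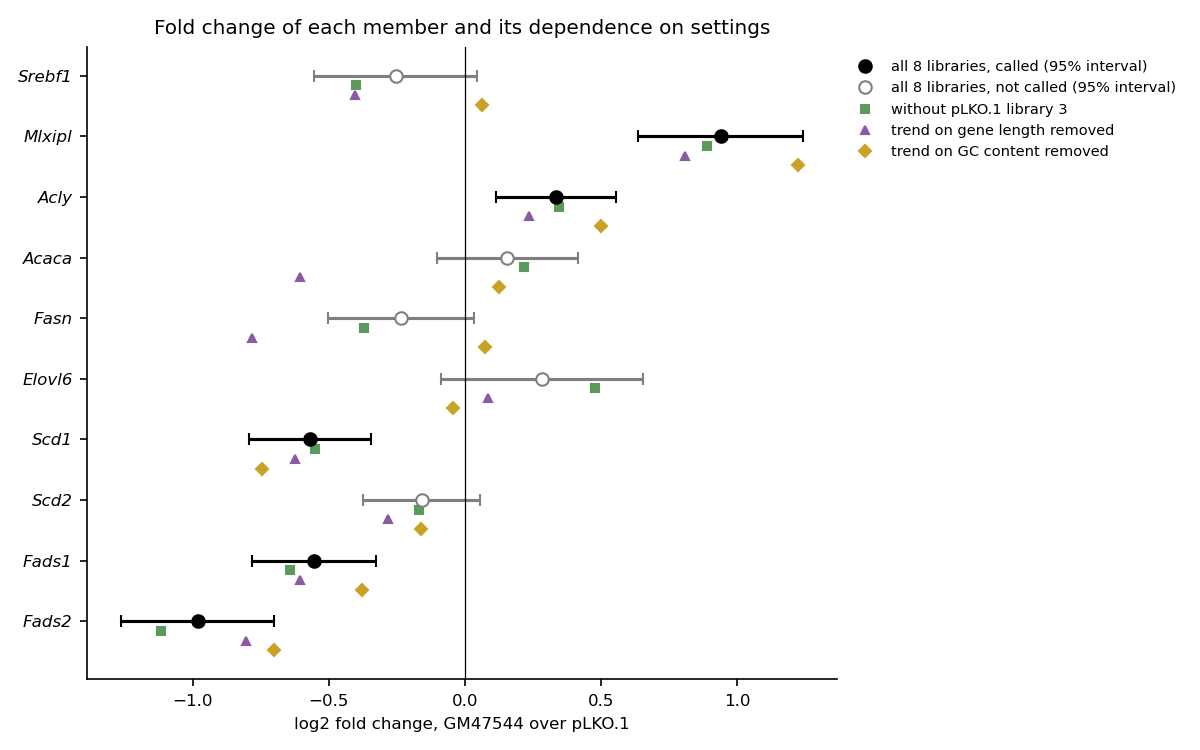
Log2 fold change of each member, GM47544 over pLKO.1, with its 95% interval over all 8 libraries (filled where called) and the value under 3 other settings. Mlxipl, Acly, Scd1, Fads1 and Fads2, as well as Scd2, stay on the same side of 0, while Acaca, Fasn, Srebf1 and Elovl6 cross it in at least 1 setting.

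The desaturases gave the clearest decreases, and Scd2 was the exception that did not pass. Fads2 (chromosome 19, 10062765 to 10101746, minus strand), the delta-6 desaturase that starts the synthesis of long polyunsaturated fatty acids, had 194, 188, 170.0 and 182 CPM in GM47544 libraries, against 400.2, 361, 279 and 412 CPM in pLKO.1 libraries. The groups were far apart, with even the lowest control, library 3, above every GM47544 library. Fads2 fell to 0.506 of the control level (log2 fold change -0.98, SE 0.13, 95% interval -1.26 to -0.70, edgeR, adjusted p = 3.98e-05), and by 1.12 on the log2 scale without pLKO.1 library 3. With the length and GC trends removed the log2 fold change was -0.53 and the call held. Fads1 (chromosome 19, 10182888 to 10196877, plus strand), the delta-5 desaturase of the same route, had 349, 337, 333 and 319 CPM in GM47544 libraries, against 481, 516, 431 and 539 CPM in pLKO.1 libraries. Its groups did not overlap either, with a log2 fold change of -0.55 (SE 0.10, 95% interval -0.78 to -0.33, edgeR, adjusted p = 0.000549).

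Scd1 (chromosome 19, 44394455 to 44407879, minus strand), the main stearoyl-CoA desaturase of adult liver, had 361, 327, 312 and 315 CPM in GM47544 libraries, against 452, 481, 536 and 482 CPM in pLKO.1 libraries. All GM47544 values lay below all pLKO.1 values, and Scd1 fell by 0.57 on the log2 scale (SE 0.10, 95% interval -0.79 to -0.35, edgeR, adjusted p = 0.000419). The calls of Scd1, Fads1 and Fads2 held in all 21 alternatives. Scd2 (chromosome 19, 44293674 to 44306864, plus strand), known for its part in lipid synthesis of the newborn mouse, had 2541, 2419, 2391 and 2482 CPM in GM47544 libraries, against 2517, 2883, 2849.9 and 2733 CPM in pLKO.1 libraries. Control library 1 lay within the GM47544 values and the other 3 above them. The log2 fold change of Scd2 was -0.16 (SE 0.099, 95% interval -0.37 to 0.055, edgeR, adjusted p = 0.174), and -0.28 with the length trend removed (edgeR, adjusted p = 0.0175).

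The paralogue pairs lie side by side on chromosome 19, with 87590 bases between Scd2 and Scd1 and 81141 bases between Fads2 and Fads1 (GRCm38). Scd2 took 87.6%, 88.1%, 88.5% and 88.7% of the counts on Scd1 and Scd2 in GM47544 libraries, against 84.8%, 85.7%, 84.2% and 85.0% in pLKO.1 libraries. Thus the share of Scd2 was higher in every GM47544 library than in any control, 88.2 ± 0.507% against 84.9 ± 0.631% (SD, n = 4 each), as a description of the same counts. Fads2 took 35.8%, 35.8%, 33.8% and 36.2% of the counts on Fads1 and Fads2 in GM47544 libraries, against 45.4%, 41.2%, 39.3% and 43.3% in pLKO.1 libraries. Its share was lower in every GM47544 library, 35.4 ± 1.10% against 42.3 ± 2.65% (SD, n = 4 each). Scd1 and Scd2 are similar in sequence, but 3.03% of the 50-base words of the longest Scd1 transcript occur in Scd2, and Fads1 shared none with another gene.

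**Figure D3:**
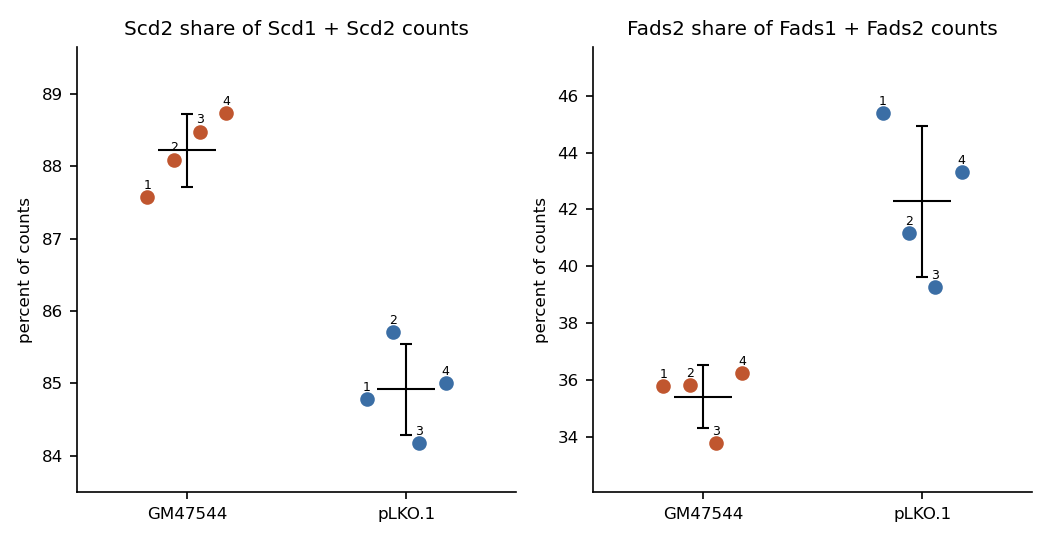
Share of counts taken by Scd2 within Scd1 plus Scd2 (left) and by Fads2 within Fads1 plus Fads2 (right) in each numbered library, in percent on axes that do not start at 0; bars are the mean and SD of 4 libraries. GM47544 libraries hold a larger Scd2 share and a smaller Fads2 share than all pLKO.1 libraries.

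Per length of exon, Scd2 was by far the most abundant member in both groups, and the regulators differed widely in level. On the RPKM scale, CPM divided by exon length in kilobases, Scd2 had 449.9 ± 12.3 in GM47544 libraries and 502.5 ± 30.3 in pLKO.1 libraries (SD, n = 4 each). In GM47544 libraries Fads1 (69.5 ± 2.504 RPKM), Scd1 (67.2 ± 4.59 RPKM) and Acly (66.3 ± 1.86 RPKM) followed, with ranges that overlapped between neighbours, then Fads2 (55.7 ± 3.15 RPKM) and Srebf1 (53.1 ± 0.453 RPKM), which overlapped each other. In pLKO.1 libraries the second place was shared by Fads2 (110.1 ± 18.3 RPKM), Fads1 (102 ± 9.74 RPKM) and Scd1 (99.7 ± 7.14 RPKM), whose ranges overlapped. Srebf1 (63.4 ± 13.0 RPKM), Acly (52.5 ± 4.48 RPKM) and Fasn (47.5 ± 7.57 RPKM) came next in controls and could not be ordered beyond their spread. Fasn was at 40.4 ± 1.11 RPKM in GM47544 libraries. The lowest levels were those of Elovl6 (4.64 ± 0.218 RPKM in GM47544 and 3.80 ± 1.115 RPKM in pLKO.1 libraries), Acaca (3.65 ± 0.175 RPKM in GM47544 and 3.28 ± 0.458 RPKM in pLKO.1 libraries) and Mlxipl (2.88 ± 0.404 RPKM in GM47544 and 1.501 ± 0.0672 RPKM in pLKO.1 libraries). Exon length joined the exons of all transcripts of a gene, so the place of Acaca below Elovl6 may depend on that choice. Summed over the 10 members, the level was 4504 ± 117 CPM in GM47544 libraries and 5331 ± 212 CPM in pLKO.1 libraries (SD, n = 4 each), and the groups did not overlap. Without Scd2 it was 2046 ± 60.8 CPM in GM47544 libraries and 2585 ± 203 CPM in pLKO.1 libraries. As a share of all raw counts the members took 0.471 ± 0.0137% in GM47544 libraries and 0.510 ± 0.0279% in pLKO.1 libraries, and these overlapped.

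The wider pathway, 8 lists of 125 genes, had 103 tested genes, of which 22 were higher and 45 lower in GM47544 libraries (27 and 38 when scaled by library totals only, and 29 and 53 without pLKO.1 library 3). The called share of 65.0% was close to the 64.4% of all tested genes, of which 32.3% were higher and 32.1% lower. Without pLKO.1 library 3, 77.4% of all tested genes were called, 38.7% in each direction. Scaled by library totals only, 58.4% of all called genes were higher. The median log2 fold change of the 103 genes was -0.24. From these lists 25 called genes are named, with SEs of 0.096 to 0.28 and adjusted p of 3.61e-07 to 0.0227 (edgeR). Of the 25, 19 were called in all 21 alternatives, and 20 moved by over 1.5 times in at least 1, each with a length or GC trend removed. Tmem97, placed in the list of genes for SREBP processing, had the largest decrease of the 103 tested genes. In that list 2 of 11 tested genes were higher and 3 lower, with a median of 0.13 (-0.37 with the length trend removed), and without pLKO.1 library 3 they were 5 and 5. Insig1, which retains SREBPs in the endoplasmic reticulum and is itself a sterol-regulated gene, was at 13.1 ± 1.03 CPM in GM47544 libraries and 48.5 ± 8.04 CPM in pLKO.1 libraries (SD, n = 4 each; log2 fold change -1.89). Tmem97, a sterol-responsive membrane protein, had a log2 fold change of -2.46, and Rnf145, a ubiquitin ligase of the same membrane, 0.81, a call lost with the length and GC trends removed (0.13; edgeR, adjusted p = 0.426). Scap, the escort of SREBPs, did not pass at -0.24 (edgeR, adjusted p = 0.126), and without pLKO.1 library 3 it was -0.38 (edgeR, adjusted p = 0.000397).

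Regulators and signalling genes went both ways, as did all tested genes, of which 32.3% were higher and 32.1% lower. Among transcription factors and partners 3 of 16 tested genes were higher and 6 lower (median log2 fold change -0.085, and 0.038 with library totals). Nr1h3, the liver X receptor that induces Srebf1 in liver, was at 26.2 ± 2.67 CPM in GM47544 libraries and 67.3 ± 12.4 CPM in pLKO.1 libraries (SD, n = 4 each; log2 fold change -1.36). Usf2, an E-box factor, had a log2 fold change of -0.97 and Sp1 of 0.89, and these were -0.36 and 0.21 with the length and GC trends removed. In AMPK and insulin signalling 7 of 18 were higher and 7 lower. With library totals 8 were higher and 3 lower, where 58.4% of all called genes were higher. With the length trend removed 3 were higher and 9 lower, beside 29.4% and 31.1% of all tested genes. The balance thus turned with the setting. Irs1, an insulin receptor substrate, had a log2 fold change of 1.13, although 30.9% of its exon bases overlap Gm9747 on the opposite strand. Insr, the insulin receptor, had 0.88, and 0.034 with the length and GC trends removed (edgeR, adjusted p = 0.751), and Trib1, a pseudokinase that restrains lipogenesis in mouse liver, had -0.80.

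Among genes that supply carbon and reducing power 3 of 17 were higher and 10 lower, where 32.3% of all tested genes were higher and 32.1% lower (median log2 fold change -0.52, and -0.38 with library totals). Slc25a1, which exports citrate from mitochondria to Acly, was at 73.0 ± 3.38 CPM in GM47544 libraries and 126.8 ± 33.4 CPM in pLKO.1 libraries (SD, n = 4 each; log2 fold change -0.79), a call lost with the length and GC trends removed (-0.086; edgeR, adjusted p = 0.219). Taldo1 of the pentose phosphate pathway and Mthfd1 of folate metabolism had log2 fold changes of -1.04 and -0.75. Taldo1 was at -0.39 with the length and GC trends removed. Me1, malic enzyme, did not pass at -0.26 (edgeR, adjusted p = 0.139), but was -0.42 without GM47544 library 1 (edgeR, adjusted p = 0.0179). Acss2, which makes acetyl-CoA from acetate, did not pass at -0.31 (edgeR, adjusted p = 0.0609), but was -0.43 without pLKO.1 library 3 (edgeR, adjusted p = 0.00194).

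In the carboxylase and synthase list 1 of 9 was higher and 5 lower, beside 32.3% and 32.1% of all tested genes (median -0.47). Mid1ip1, which promotes the polymerisation of acetyl-CoA carboxylase, was at 318 ± 5.15 CPM in GM47544 libraries and 493 ± 94.7 CPM in pLKO.1 libraries (SD, n = 4 each; log2 fold change -0.63), a call lost with the length trend removed (-0.23; edgeR, adjusted p = 0.0598), and 25.5% of its exon bases overlap Gm14493 on the opposite strand. Hlcs, which attaches biotin to carboxylases, was the gene of the list that rose, at 0.77 on the log2 scale. Acot7, an acyl-CoA thioesterase, and Mecr, of mitochondrial fatty acid synthesis, had log2 fold changes of -0.84 and -0.99. With the length and GC trends removed Hlcs was at 0.45, Acot7 at -0.13 and Mecr at -0.45. Acacb, the mitochondrial isoform of acetyl-CoA carboxylase, had 33 GM47544 and 30 pLKO.1 counts, and Thrsp, a relative of Mid1ip1, had 13 GM47544 and 3 pLKO.1 counts, so neither was tested. Per equal depth Thrsp was 4.67-fold higher, where counting error alone allows 1.28 to 25.6 (exact 95% binomial).

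Other elongation genes went both ways, whereas over all 8 libraries the called genes among the other desaturases and electron donors were lower. Among all tested genes 32.3% were higher and 32.1% lower. In elongation 3 of 8 were higher and 4 lower (median -0.25, and 0.10 with the length trend removed). Elovl1, an elongase of saturated very long chains, and Hacd1, a dehydratase of the elongation cycle, had log2 fold changes of -1.03 and -1.13, and Elovl7 had 0.93. Elovl5, the elongase of polyunsaturated chains that works between Fads2 and Fads1, had 0.46 (edgeR, adjusted p = 0.0227). That call was lost without GM47544 library 4 (0.43; edgeR, adjusted p = 0.0608), without pLKO.1 library 1, 2 or 4 (0.37, 0.41 and 0.38; edgeR, adjusted p = 0.081, 0.0691 and 0.0643) and with the GC trend removed (0.17; edgeR, adjusted p = 0.0804). In the list of other desaturases and their electron donors 0 of 9 were higher and 5 lower (median -0.42). The called share of 55.6% was below the 64.4% of all tested genes. Without pLKO.1 library 3 they were 2 and 6, beside 38.7% of all tested genes in each direction. With the GC trend removed they were 2 and 5 (median -0.20), beside 35.8% and 35.6% of all tested genes. Fads3, a paralogue of Fads1 and Fads2, had a log2 fold change of -0.42, lost with the length and GC trends removed (-0.11; edgeR, adjusted p = 0.158). Cyb5a, the cytochrome that passes electrons to desaturases, was at 282 ± 13.7 CPM in GM47544 libraries and 462 ± 46.5 CPM in pLKO.1 libraries (SD, n = 4 each; log2 fold change -0.71). Degs1, a desaturase of sphingolipid synthesis, and Fads6 had -0.68 and -1.89, and Degs1 was at -0.39 with the length trend removed. Scd3 had only 18 GM47544 and 23 pLKO.1 counts.

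Other known targets of SREBPs and ChREBP gave 3 of 15 higher and 5 lower (median log2 fold change -0.012, and 0.12 with library totals). Beside them 32.3% of all tested genes were higher and 32.1% lower. Without pLKO.1 library 3 they gave 5 higher and 7 lower, beside 38.7% of all tested genes in each direction. Angptl8, an insulin-induced regulator of lipoprotein lipase, was at 1.89 ± 0.558 CPM in GM47544 libraries and 6.99 ± 2.34 CPM in pLKO.1 libraries (SD, n = 4 each), with a log2 fold change of -1.83, and -0.98 with the length trend removed.

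**Figure D4:**
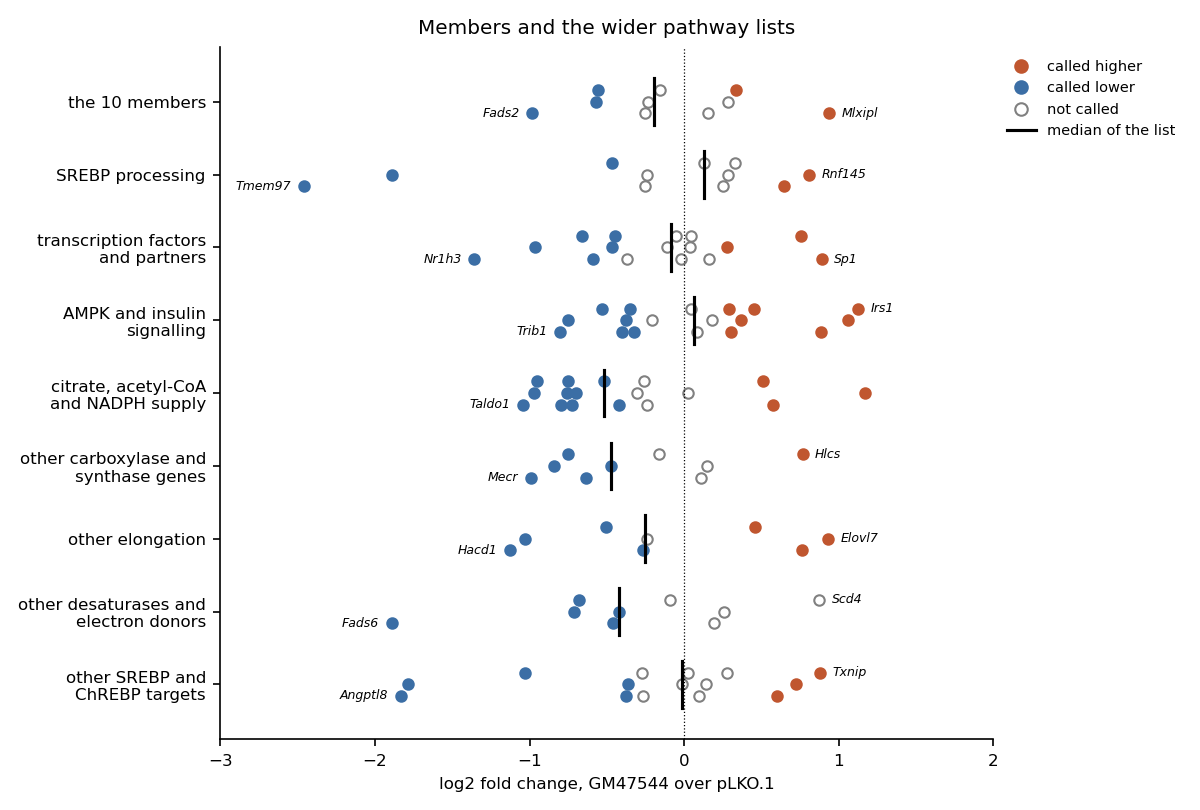
Log2 fold change, GM47544 over pLKO.1, of each tested gene of the 10 members and of the 8 wider lists; orange and blue points were called higher and lower, open points were not called, vertical bars are list medians, and some genes at the ends of the lists are named. The lists of citrate, acetyl-CoA and NADPH supply (median -0.52) and of other carboxylase and synthase genes (median -0.47) have the lowest medians over all 8 libraries. Only the medians of SREBP processing (0.13) and of AMPK and insulin signalling (0.062) lie above 0.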

How the data were processed

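RNA-seq was analysed from 8 AML-12 libraries, 4 with GM47544 and 4 with pLKO.1, grouped by sample title. Raw counts per gene symbol were deposited by the authors, not normalized. FastQC, STAR, HTSeq and the mm10 build are listed per the submitters' processing notes, with no version, annotation or strand setting. Gm47544 itself was not analysed here. Genes were kept by filterByExpr (minimum count 10) and compared with edgeR 4.0.16 in R 4.3.3 (two-sided quasi-likelihood test, trimmed-mean scaling, group as the only term, Benjamini-Hochberg adjustment over 11520 genes, called at 0.05). CPM and RPKM use scaled library sizes, and exon lengths, GC content and coordinates come from GENCODE M21 (GRCm38), which matched 21926 of 21983 symbols. Standard errors are the log2 fold change over the square root of F. Intervals on ratios of low counts are exact binomial at 95% and cover only counting error.

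The members and lists were chosen with earlier results of these data known. All 10 members are named, and from each wider list the 3 called genes with the smallest p plus 11 partners and paralogues. Some genes that this rule would name are not reported here. Chi-square values per gene between libraries of a group were 2.41 to 102, so no pair of libraries matched within counting noise. On simulated GM47544 against pLKO.1 counts (11442 genes) recovery was 40% at a 1.5-fold change, 86% at 2-fold, 96% at 4-fold and 98% at 8-fold, and 7 of 167 calls were false. Only 50 genes were changed at each of these folds, whereas 64.4% of tested genes were called in the data. The adjusted p depends on that share, so these rates need not hold for the real comparison. The alternatives comprised other scalings, filters, DESeq2 1.42.0, limma-voom (limma 3.58.1) with quality weights, a replicate block, leaving out each library, and removal of trends on length or GC (lowess, span 0.3). Removal of both trends, or of either without pLKO.1 library 3, was added after seeing the data. Figures were drawn with matplotlib 3.10.9.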

Additional observations from a re-analysis of the deposited data

How the results depend on the processing

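Over 21 alternatives the members higher and lower numbered 4 and 5 with limma-voom with quality weights (77.4% of all tested genes called). They numbered 2 and 7 with the length trend removed (60.6% called) and with both trends removed (68.1% called). Removal of the length trend gave 3 and 7 without pLKO.1 library 3 (73.2% called), and 1 and 6 with the replicate block (58.0% called). Leaving out each library gave 2 to 4 higher and 3 to 5 lower. Both upper values came without pLKO.1 library 3, where 77.4% of all tested genes were called. With limma-voom, calls were gained by Srebf1 (log2 fold change -0.32), Acaca (0.29), Fasn (-0.31) and Elovl6 (0.44). With the length trend removed, they were gained by Srebf1 (-0.41), Fasn (-0.78) and Scd2 (-0.28), and Acaca turned to -0.60. With the block added to that, Srebf1 was -0.37, Fasn -0.74 and Acaca -0.60, and Acly lost its call (0.24). With the GC trend removed, Srebf1, Fasn and Elovl6 turned to 0.061, 0.074 and -0.044, and Scap to 0.058. With both trends removed, Acaca was -0.64, Elovl6 -0.25, Fasn -0.45 and Scd2 -0.29, and Mid1ip1 turned to 0.071. Without pLKO.1 library 3, removal of the length trend gave Srebf1 -0.56, Acaca -0.65, Fasn -0.96, Elovl6 0.24 and Scd2 -0.30, and removal of the GC trend gave Srebf1 0.035, Fasn 0.063, Acaca 0.17, Scd2 -0.17 and Scap 0.049. The cause was not tested. Leaving out each library gave log2 fold changes of -0.40 to -0.15 for Srebf1, 0.096 to 0.22 for Acaca, -0.37 to -0.18 for Fasn and 0.19 to 0.48 for Elovl6, with a call only without pLKO.1 library 3. The replicate block alone changed no call of a member and left 7129 genes called, against 7417. Same-numbered libraries correlated at -0.119 to 0.0227 in their deviations from the group means, and 0 of 4 GM47544 libraries correlated best with their own number. Thus no deviation shared by number was seen, which cannot show whether same-numbered libraries were handled together. The Scd2 share of the Scd pair stayed 3.05 to 3.56 percentage points higher in GM47544, and the difference in the Fads2 share of the Fads pair stayed at -7.89 to -5.85 points, when each library was left out. Depth limits mainly Mlxipl, the member with the fewest counts.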

Other observations

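Some genes of the wider lists were too few in counts to be tested but differed between the groups. They were picked out after their values were seen. Elovl2, an elongase of long polyunsaturated fatty acids, had 8, 18, 3 and 11 counts in GM47544 libraries 1 to 4, against 0, 1, 0 and 0 in pLKO.1 libraries, 43.1-fold higher per equal depth, where counting error alone allows 7.31 to 1745 (exact 95% binomial). All GM47544 libraries held Elovl2 reads, against 1 of 4 pLKO.1 libraries. Degs2, a sphingolipid hydroxylase and desaturase, had 11 GM47544 counts and 0 pLKO.1 counts, although 10.8% of its exon bases overlap Evl on the opposite strand. Per equal depth Degs2 was 3.95-fold higher with the control group set at a floor of 3 counts in all. That ratio leaves out the counting error of the 11 counts. Ppargc1b, a coactivator of SREBP-1 in mouse liver, had 8 GM47544 and 30 pLKO.1 counts, a ratio of 0.287 per equal depth (0.114 to 0.642 by the same interval). Control libraries 1 and 4 held 13 and 11 of the 30, and the others 3 each.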
